A study of Mus musculus with 3 samples.

Results

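The 29 genes described here encode the machinery of meiotic recombination and synapsis: proteins of the synaptonemal complex, the chromosome axis and its checkpoint, the meiotic cohesins, and the factors that break, exchange and cross over DNA. They were chosen by gene symbol out of 55450 genes counted. The study profiled single cells from testes of mice whose germ cells had been depleted by busulfan, a DNA-alkylating agent toxic to proliferating spermatogonia, as a model of azoospermia. All 3 groups received busulfan. Mice of the dEXO group were also injected with exosomes from the blood of mice with a disturbed intestinal microbiota, mice of the EXO group with blood exosomes of wild-type mice, and mice of the PBS group with phosphate-buffered saline. Exosomes are small membrane vesicles that cells release. Each group was 1 library made with 10x Genomics 3′ chemistry, so no difference between groups has a replicate check, no p-value is given, and intervals cover counting error only. Strain, age, dose, time after injection and the number of animals per library are not given in the sources used here.

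In meiosis, each chromosome is first organised along a cohesin-based axis. Programmed double-strand breaks are then made on it, and repair of these breaks against the homologous chromosome brings the homologues together. The synaptonemal complex closes between paired homologues during zygotene and holds them through pachytene, while a few repair intermediates mature into crossovers. In the mouse testis these steps take place in spermatocytes, between the last divisions of spermatogonia and the haploid spermatids.

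Stages were named from clusters built with the 29 genes left out, and from marker genes that are not among them. Each name stands for cells that are like that stage by those markers. The spermatogonia-like class carried markers of differentiating spermatogonia, such as Sohlh1 and Sohlh2. Its larger sub-cluster, s3, scored nearly as high for undifferentiated spermatogonia, with Zbtb16 at 69.9 CPM and Sall4 at 76.3 CPM. The dEXO, EXO and PBS libraries held 292, 139 and 84 spermatogonia, 403, 242 and 27 early spermatocytes, and 396, 227 and 32 pachytene and later spermatocytes. They further held 638, 368 and 60 round spermatids and 50, 19 and 8 elongating spermatids. In all, germ-stage cells were 1779 of 8947 dEXO cells, 995 of 9860 EXO cells and 211 of 5267 PBS cells. The libraries were close in total depth, with 96655663, 91787154 and 97253862 unique molecular identifiers (UMIs, 1 per captured RNA molecule), but the median barcode had 2852 UMIs in dEXO, 3144 in EXO and 7708 in PBS. Pairs of libraries shared 19 cell barcodes each, and none was in all 3. Stages with fewer than 20 cells in a library were not compared, which left elongating spermatids out. The PBS sums rest on few deep cells: the 5 deepest cells held 55.3% of UMIs in PBS early spermatocytes, 88.5% in pachytene and later spermatocytes, and 48.7% in round spermatids. The tissue is testis per the labels and by its Leydig-like, Sertoli-like and germ cells, while the wording of the extraction protocol speaks of aorta.

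The genes lie on 14 chromosomes, and their promoters are shown because 21 of the 29 reached their highest level in the same stage. RefSeq (GRCm38.p6) gave the 250 bases before the annotated start for 26 of the 29. By GENCODE gene bounds, which can start elsewhere, the windows of Mei1, Ccnb1ip1, Rec114, Msh4, Prdm9 and Stag3 lie inside the gene. Among these, Ccnb1ip1 and Prdm9 hold TCCCGC and Rec114 and Stag3 hold CACGTG. Spo11, Meiob and Tex11 are named only. The motif TCCCGC, the core that E2F factors bind, was searched on both strands and was in 13 of these 26 (50%), against 16.9% of 27018 promoters of that length. CACGTG, the E-box that complexes with Max bind, was in 6 of 26 (23.1%), against 6.05% of all. CNCCTCAG, a motif reported for the meiotic initiator Stra8, was in 2 of 26 (7.69%), against 6.38% of all. The members' promoters were also richer in G and C, with a median of 57.4% against 52.0% over all promoters, and the part of this in the motif counts was not tested. The next lines give, 5′ to 3′ on the gene's strand with TCCCGC and CACGTG of either strand in capitals, 3 promoters of genes highest in early spermatocytes that hold a motif, then those of Syce1 and Syce3, which were highest later and hold neither. Hormad1 is at chr3:95559427-95559676 (plus strand), Dmc1 at chr15:79605110-79605359 (minus), Sycp1 at chr3:102936101-102936350 (minus), Syce1 at chr7:140787855-140788104 (minus) and Syce3 at chr15:89410504-89410753 (minus). None of these motif matches overlaps another.
Hormad1: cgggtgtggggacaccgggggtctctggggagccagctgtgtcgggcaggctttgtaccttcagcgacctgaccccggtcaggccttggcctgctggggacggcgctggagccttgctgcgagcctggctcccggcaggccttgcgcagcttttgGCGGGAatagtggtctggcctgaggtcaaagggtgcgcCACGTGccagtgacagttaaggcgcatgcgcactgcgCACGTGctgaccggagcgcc
Dmc1: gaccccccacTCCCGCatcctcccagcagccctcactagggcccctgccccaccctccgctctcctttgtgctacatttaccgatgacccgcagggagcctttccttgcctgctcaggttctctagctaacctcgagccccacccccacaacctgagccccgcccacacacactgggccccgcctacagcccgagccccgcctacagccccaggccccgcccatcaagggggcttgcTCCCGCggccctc
Sycp1: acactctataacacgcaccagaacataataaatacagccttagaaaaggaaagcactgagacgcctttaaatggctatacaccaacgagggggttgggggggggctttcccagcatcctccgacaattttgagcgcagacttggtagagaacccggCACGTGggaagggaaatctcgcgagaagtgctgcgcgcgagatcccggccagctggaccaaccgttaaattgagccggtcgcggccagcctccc
Syce1: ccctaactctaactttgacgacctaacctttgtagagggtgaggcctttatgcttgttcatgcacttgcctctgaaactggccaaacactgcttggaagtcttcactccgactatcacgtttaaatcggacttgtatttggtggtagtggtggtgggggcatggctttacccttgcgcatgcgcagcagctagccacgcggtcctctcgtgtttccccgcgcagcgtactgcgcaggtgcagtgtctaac
Syce3: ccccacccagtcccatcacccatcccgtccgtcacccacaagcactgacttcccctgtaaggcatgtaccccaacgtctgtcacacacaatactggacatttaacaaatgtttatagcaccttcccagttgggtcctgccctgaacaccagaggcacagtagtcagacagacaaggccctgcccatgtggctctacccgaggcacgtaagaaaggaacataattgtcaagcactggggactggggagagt

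Hormad1 and Dmc1 carry TCCCGC, Hormad1 and Sycp1 carry CACGTG, and Syce1 and Syce3 carry neither. Of the 19 promoters of genes highest in early spermatocytes, 11 held TCCCGC and 6 held CACGTG, and of the other 7 promoters 2 and 0 did. A match is a run of letters and no evidence of binding.

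As a sum, the 29 genes were highest in early spermatocytes in every library. Their summed level was 10790.5 CPM (UMIs scaled to 1000000 UMIs of the stage) in dEXO early spermatocytes, 11733 in EXO and 10732 in PBS. Spermatogonia before them had 3852 CPM in dEXO, 4428 in EXO and 3722 in PBS. After them, pachytene and later spermatocytes had 3062, 2598 and 3639 CPM in dEXO, EXO and PBS, round spermatids 1915, 1813 and 1849, and elongating spermatids 1477, 1542 and 1411. The order of the stages was the same in the 3 libraries. A cell thinned to 1000 UMIs held a median of 8, 8 and 9 molecules of the 29 genes in dEXO, EXO and PBS early spermatocytes, from a median of 6 different genes in each library. Thinned spermatogonia held 4, 4 and 3, pachytene and later spermatocytes 3, 3 and 2, and round spermatids 2, 2 and 2. Thinning left out 103, 67 and 4 early spermatocytes of dEXO, EXO and PBS that were shallower.

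**Figure D1:**
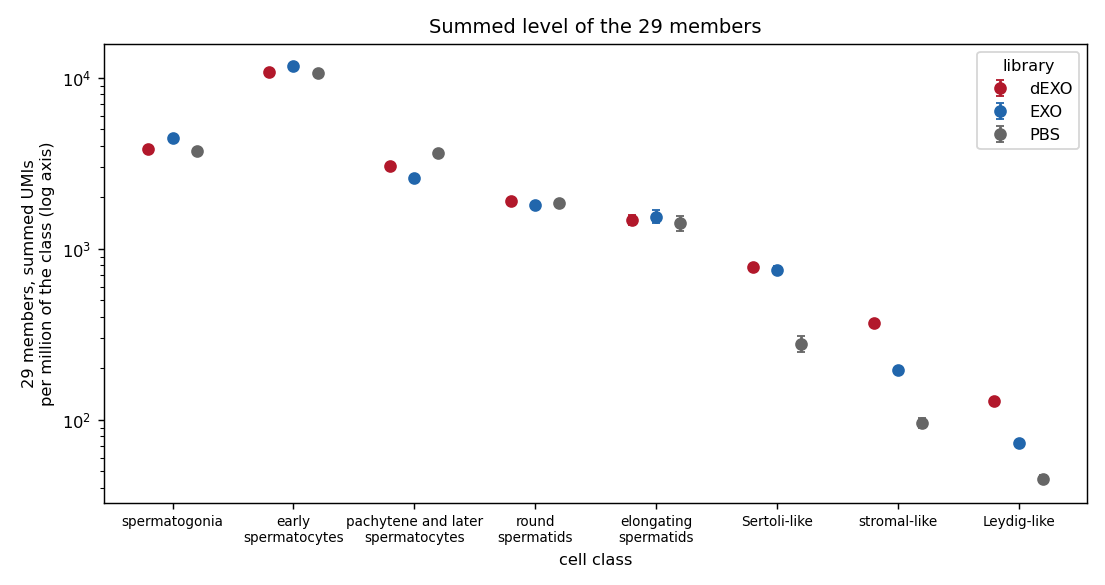
Summed level of the 29 genes, in CPM of the cell class (log axis), by class and library; bars are exact Poisson 95% intervals for counting error. Early spermatocytes lie highest in each library, at 10790.5 CPM in dEXO, 11733 in EXO and 10732 in PBS.

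Members were also counted in cells that do not enter meiosis. In Leydig-like cells, which make testosterone, the sum was 130 CPM in dEXO, 73.2 in EXO and 45.3 in PBS, under every germ stage. Sertoli-like cells, the supporting cells that enclose the germ cells, had 780, 751 and 277 CPM in dEXO, EXO and PBS, and stromal-like cells 369, 195 and 95.9. These classes are shallower, with medians of 3276, 5137 and 6857 UMIs per Sertoli-like cell and 2293, 2551 and 5210 per stromal-like cell, against 14265, 18538 and 34217.5 per Leydig-like cell in dEXO, EXO and PBS. How much of each is free RNA was not tested. In Leydig-like cells, 15 of the 22 genes with enough UMIs were past 2-fold higher in dEXO than in PBS (over all genes 14.6% were), and none was past 2-fold lower. Between EXO and PBS 10 of 20 were past 2-fold higher there (over all genes 8.93%). Past 2-fold means, here and below, a ratio of at least 2 whose 95% counting interval leaves out 1, for genes with at least 20 UMIs over both libraries. Where each cell counts equally no interval was made, and only a ratio of at least 2 is asked. Germ-stage cells were 19.9% of dEXO, 10.1% of EXO and 4.01% of PBS cells, in the same order as this level outside the germ line, and their part in it was not tested. Among the 22, Mlh3 and Syce2 differed least between dEXO and PBS Leydig-like cells, Mlh3 with 14.0, 10.6 and 11.5 CPM and Syce2 with 21.1, 17.7 and 14.3 CPM in dEXO, EXO and PBS. Syce2 shares its locus with Gcdh on the other strand, and no source used here gives whether the authors counted by strand.

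Of the 28 genes with at least 20 UMIs over the germ stages, 21 had their highest mean level in early spermatocytes, against 20.9% of all 22146 genes with as many UMIs. Trip13 was highest in spermatogonia, as were 25.8% of all genes. Syce1, Spo11 and Mlh3 were highest in pachytene and later spermatocytes, as were 19.6% of all genes. Syce3 and Rec8 were highest in round spermatids (15.5% of all genes) and Msh4 in elongating spermatids (18.3%). In 27 of the 28 the highest stage was the same in the 3 libraries, and the exception was Msh4. Spata22 had 19 UMIs over all stages and was not placed. The classes were built from the other genes of the same cells, so these counts describe the genes and test nothing.

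**Figure D2:**
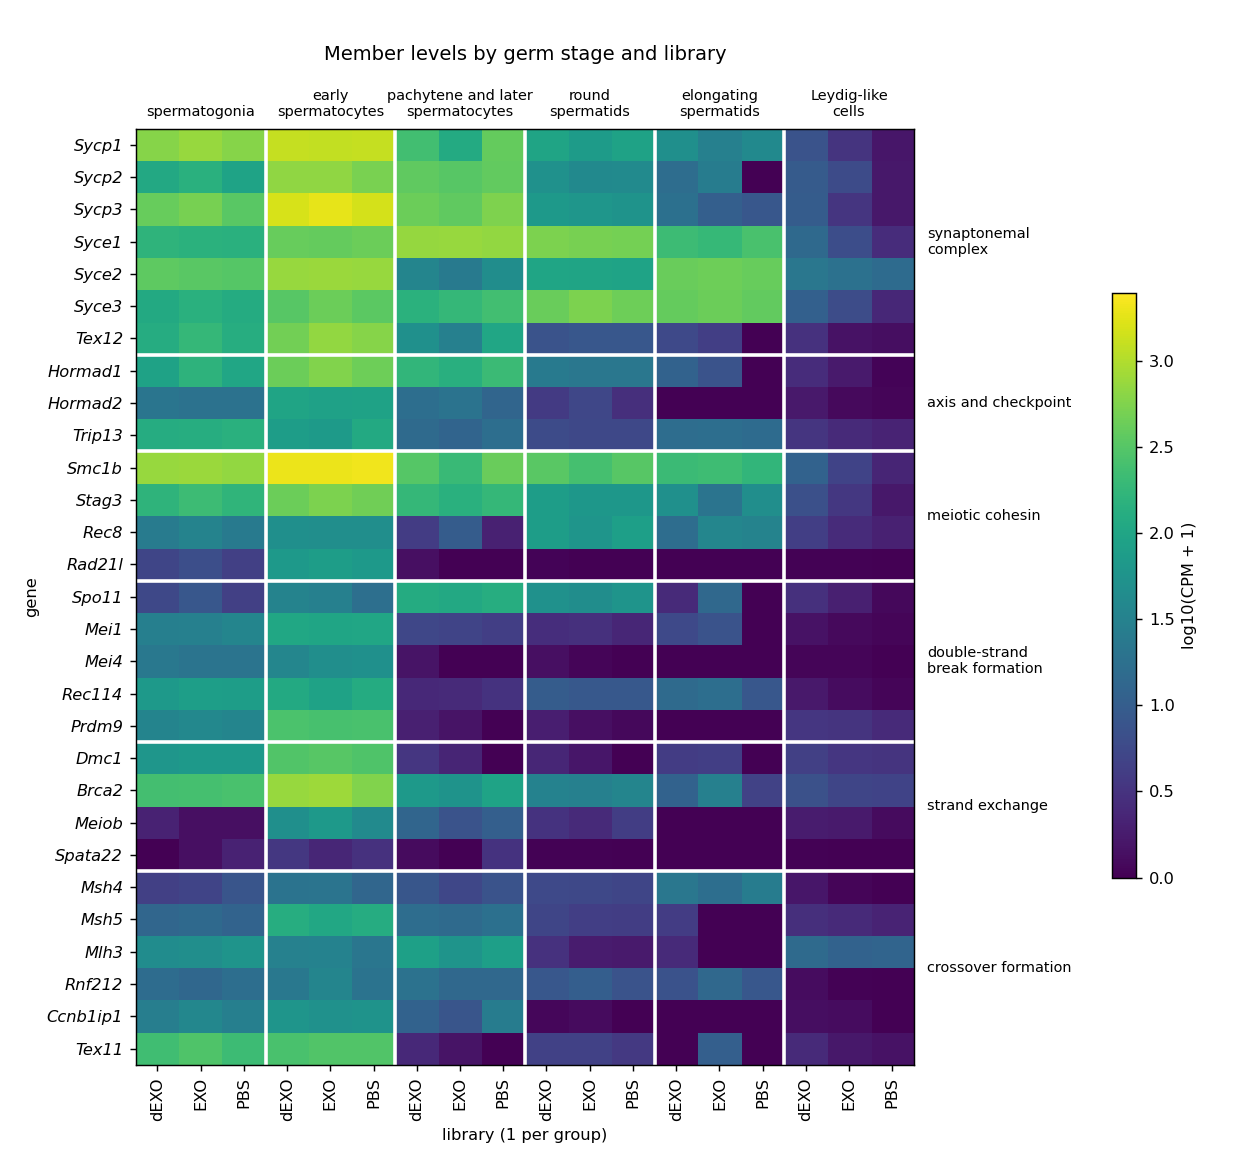
Level of each of the 29 genes, as log10(CPM + 1), by germ stage and library and in Leydig-like cells, with genes grouped by role. The brightest cells lie in early spermatocytes for 21 genes, led by Smc1b and Sycp3, while Syce1, Syce3, Rec8, Spo11 and Mlh3 are brightest later.

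Levels were higher at the entry into meiosis. From spermatogonia to early spermatocytes, 21 of 28 genes in dEXO, 21 of 28 in EXO and 19 of 27 in PBS were past 2-fold higher (over all genes 15.3%, 12.2% and 11.1%). In dEXO and EXO none was past 2-fold lower, and in PBS 1 was, Mlh3 (over all genes 14.8% in dEXO, 12.9% in EXO and 14.7% in PBS). The medians were 1.57, 1.66 and 1.54 on the log2 scale in dEXO, EXO and PBS. At the next step, to pachytene and later spermatocytes, 23 of 28 genes in dEXO, 25 of 28 in EXO and 21 of 27 in PBS were past 2-fold lower (over all genes 40%, 41.7% and 37.2%), and 2, 1 and 2 were higher (28.5%, 31.4% and 29.6%). From there to round spermatids 16 of 26, 13 of 24 and 14 of 22 were lower again in dEXO, EXO and PBS (over all genes 32.6%, 29.9% and 31.8%), and 5, 5 and 2 were higher (26.6%, 25.5% and 27.4%).

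The transverse filament and axial element genes of the synaptonemal complex followed this course. Sycp3, a core of the axial and later lateral element, had 1544 CPM in dEXO early spermatocytes, 1883 in EXO and 1509 in PBS. In spermatogonia it had 401, 506 and 337 CPM in dEXO, EXO and PBS, so that early spermatocytes stood 3.85, 3.72 and 4.48 times higher. Pachytene and later spermatocytes kept 429, 368 and 548 CPM of Sycp3 in dEXO, EXO and PBS, and round spermatids 67.0, 60.0 and 54.2. The Sycp3 gene lies within Chpt1, which is on the other strand. Sycp1, the transverse filament that bridges the homologues, had 1271, 1231 and 1255 CPM in dEXO, EXO and PBS early spermatocytes. It was already at 613, 739 and 597 CPM in spermatogonia, above the level of any other synaptonemal complex gene there. Sycp2, the partner of Sycp3 in the axial element, had 677, 685 and 513 CPM in dEXO, EXO and PBS early spermatocytes. It held 375, 329 and 377 CPM in pachytene and later spermatocytes, the smallest loss among these 3 genes. UMIs of 3′ libraries count a molecule once whatever its length, so these levels can be set side by side, apart from gene differences in capture.

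The central element genes, whose products stitch the transverse filaments together, split in 2 ways. Tex12 and Syce2, whose products bind each other, were highest in early spermatocytes, Tex12 with 481, 714 and 600 CPM and Syce2 with 757, 767 and 754 CPM in dEXO, EXO and PBS. Tex12 was down at 6.36, 7.30 and 7.34 CPM in round spermatids. The Tex12 gene lies within Il18, which is on the other strand. Syce2 had 34.0, 23.8 and 45.2 CPM in dEXO, EXO and PBS pachytene and later spermatocytes but 100.3, 97.2 and 93.9 CPM in round and 422, 452 and 410 CPM in elongating spermatids. That second level rests on 50, 19 and 8 cells, and on a locus shared with Gcdh. Syce1 went on upward, to 730, 756 and 706 CPM in pachytene and later spermatocytes of dEXO, EXO and PBS, against 411, 389 and 437 CPM in early spermatocytes. Round spermatids still held 537, 498 and 495 CPM of Syce1. Syce3 had 329, 432 and 351 CPM in early spermatocytes of dEXO, EXO and PBS, less in pachytene and later spermatocytes, at 149, 180 and 235 CPM, and its highest level in round spermatids, at 421, 528 and 444 CPM. Transcripts of Syce1 and Syce3 were thus abundant in cells named round spermatids in each library. Their sub-cluster s2 also had 4 raised markers of pachytene and later spermatocytes. Ccna1, a marker of that earlier stage, was at 255 CPM in s2 and 279 CPM in its sub-cluster s17, with the libraries summed. In the round spermatid sub-cluster s7, where Ccna1 was at 70.8 CPM, Syce1 had 388 CPM and Syce3 471 CPM.

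Axis and checkpoint genes were mostly early. Hormad1, which coats unsynapsed axes, had 429, 576 and 446 CPM in dEXO, EXO and PBS early spermatocytes and 23.3, 21.3 and 21.1 CPM in round spermatids. Hormad2, its paralogue, was lower throughout, with 95.1, 86.1 and 90.4 CPM in early spermatocytes. Trip13, the ATPase that strips HORMAD proteins from synapsed axes, was the only placed member highest in spermatogonia, at 126, 131 and 144 CPM in dEXO, EXO and PBS. It had 77.8, 70.9 and 115 CPM in early spermatocytes, and in PBS the interval of that step included 0 (log2 ratio −0.32, 95% counting interval −0.75 to 0.09).

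Among the meiotic cohesins, Smc1b had the highest level of all 29 genes. It reached 1995 CPM in dEXO, 1984 in EXO and 2095 in PBS early spermatocytes, against 756, 776 and 704 CPM in spermatogonia. Stag3, the meiotic stromalin, had 429, 533 and 460 CPM in early spermatocytes of dEXO, EXO and PBS and 161, 212 and 164 CPM in spermatogonia. The 2 meiotic kleisins, the subunits that close the cohesin ring, ran apart. Rad21l was nearly restricted to early spermatocytes, with 66.9, 77.5 and 67.8 CPM in dEXO, EXO and PBS. It had 22, 15 and 9 UMIs in spermatogonia and 3, 0 and 0 UMIs in pachytene and later spermatocytes, and against a floor of 3 counts early spermatocytes of EXO were at least 102-fold higher. In PBS the counts were 33 UMIs in early spermatocytes and 0 after. Rec8 had 24.95, 32.3 and 24.3 CPM in spermatogonia and 48.0, 46.4 and 47.2 CPM in early spermatocytes of dEXO, EXO and PBS. Its transcripts were then nearly gone from pachytene and later spermatocytes, at 2.99, 8.85 and 1.08 CPM, the last from 1 UMI. In round spermatids they were at 76.5, 58.6 and 81.3 CPM, the highest of any stage. This dip and return was present in each library.

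The general cohesin subunits that these genes stand beside gave a contrast. Smc1a, the counterpart of Smc1b in dividing cells, had 129, 122 and 107 CPM in dEXO, EXO and PBS spermatogonia, 83.3, 67.6 and 49.3 CPM in early spermatocytes and 8, 1 and 2 UMIs in pachytene and later spermatocytes. Rad21, the mitotic kleisin, had 201, 188 and 199 CPM in spermatogonia and 63.5, 59.6 and 32.9 CPM in early spermatocytes. Both were lower where Smc1b and Rad21l were highest, in all 3 libraries. Stag2 and Stag1, the counterparts of Stag3, did not share that course: Stag2 had a mean over the libraries of 57.9 CPM in spermatogonia and 67.3 CPM in early spermatocytes, and Stag1 of 299 and 394 CPM. Smc3, the subunit common to both kinds of ring, had a mean of 476 CPM in spermatogonia and 974 CPM in early spermatocytes. Of 9 such subunits and cohesin regulators, which were not left out of clustering, 6 were highest in early spermatocytes, against 20.9% of all genes. There 0 of 9 were past 2-fold in dEXO against PBS (over all genes 6.49%), EXO against PBS (4.39%) and dEXO against EXO (4.66%), too few genes to differ from those shares.

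Levels of the genes for break formation, other than Spo11, lay mostly in spermatogonia and early spermatocytes. Prdm9, the histone methyltransferase that marks recombination hotspots, had 276, 259 and 265 CPM in dEXO, EXO and PBS early spermatocytes. It had 32.8, 37.5 and 33.8 CPM in spermatogonia, and 8, 2 and 0 UMIs in pachytene and later spermatocytes. Mei1, needed for break formation, had 106, 100.1 and 100.6 CPM in early spermatocytes of dEXO, EXO and PBS and 4.35, 4.04 and 3.23 CPM in the next stage. Mei4 and Rec114, which form a complex on the axis before breaks, had 35.8, 46.4 and 49.3 CPM and 115, 90.1 and 121 CPM in early spermatocytes of dEXO, EXO and PBS. Rec114 was already at 68.1, 80.4 and 78.1 CPM in spermatogonia, and reads from its locus can overlap Nptn on the other strand. Rec114 also had a later, low level. Its mean over the libraries was 1.72 CPM in pachytene and later spermatocytes, 8.05 CPM in round and 12.4 CPM in elongating spermatids, the last from 16 UMIs. Spo11, the enzyme that cuts the DNA, went against the rest of its group. It had 32.4, 29.2 and 16.4 CPM in early spermatocytes of dEXO, EXO and PBS and 122, 111 and 131 CPM in pachytene and later spermatocytes, which is 3.78, 3.80 and 7.99 times higher. Round spermatids held 51.1, 45.7 and 55.7 CPM of Spo11. The measured transcripts of Spo11 thus lay mostly in later cells than those of Prdm9, Mei1, Mei4 and Rec114. Transcript isoforms of Spo11 are not told apart by counts at the 3′ end.

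Strand exchange genes were early. Dmc1, the meiotic recombinase, had 298, 325 and 285 CPM in dEXO, EXO and PBS early spermatocytes and 61.1, 68.3 and 65.2 CPM in spermatogonia. In pachytene and later spermatocytes 20, 5 and 0 UMIs of Dmc1 were counted, a CPM under that in Leydig-like cells of each library. Brca2, which acts in strand exchange by homologous repair, had 744, 804 and 577 CPM in early spermatocytes of dEXO, EXO and PBS and 242, 247 and 261 CPM in spermatogonia. Meiob, a single-strand binding protein of meiosis, had 6, 1 and 1 UMIs in spermatogonia of dEXO, EXO and PBS, against 48.8, 66.9 and 41.1 CPM in early spermatocytes. The ratio of these stages was 43.7 in dEXO (log2 5.45, 95% counting interval 4.28 to 6.92), the steepest entry among the placed members in that library. Spata22, the partner of Meiob, was close to the limit of detection, with 6, 2 and 1 UMIs in early spermatocytes, and its gene overlaps another annotated coding gene on the same strand.

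Crossover genes were spread over the stages. Msh5, which with Msh4 holds recombination intermediates, had 131, 107 and 127 CPM in dEXO, EXO and PBS early spermatocytes. Msh4 was lower, at 18.9, 19.2 and 12.3 CPM in early spermatocytes and 21.5, 16.1 and 25.4 CPM in elongating spermatids, from 14, 5 and 7 UMIs. Mlh3, part of the nuclease that resolves crossovers, had 85.3, 57.4 and 81.8 CPM in pachytene and later spermatocytes of dEXO, EXO and PBS, against 30.3, 31.1 and 20.5 CPM in early spermatocytes. Round spermatids held 2.06, 0.818 and 0.753 CPM of Mlh3, under its level in Leydig-like cells. Rnf212, which acts at crossover sites, was low, with 15.1, 12.9 and 15.9 CPM in spermatogonia of dEXO, EXO and PBS. It had 21.9, 33.8 and 18.5 CPM in early spermatocytes and 17.9, 12.9 and 12.9 CPM in the next stage. In EXO both steps were past 2-fold, up (log2 ratio 1.39, 0.75 to 2.06) and down (−1.39, −1.98 to −0.80), while in dEXO and PBS neither was. Ccnb1ip1, also known as Hei10 and an antagonist of Rnf212, had 57.6, 51.7 and 55.4 CPM in early spermatocytes and 0.134, 0.252 and 0 CPM in round spermatids. Tex11, an X-linked gene needed for crossovers, had 224, 287 and 212 CPM in spermatogonia and 263, 295 and 299.8 CPM in early spermatocytes of dEXO, EXO and PBS. The step was short of 2-fold in each library, at ratios of 1.18, 1.03 and 1.41, and its interval included 1 in EXO. Pachytene and later spermatocytes held 12, 2 and 0 UMIs of Tex11.

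Sub-clusters ordered these genes more finely. Summed over the libraries, Prdm9 and Dmc1 were highest in sub-cluster s6 of early spermatocytes, at 298 and 339 CPM, and at 2.42 and 3.63 CPM in s4, the first of the later spermatocytes shown. Spo11 and Mlh3 were both highest in s13, at 267 and 295 CPM, where Sycp2 also reached its highest level, 1266 CPM. Syce1 was highest in s9, at 938 CPM, although in PBS it was higher in s17, at 863 CPM from 2 cells, than in s9, at 711 CPM. In s9 Spo11 was at 92.4 CPM and Mlh3 at 7.06 CPM. Rec8 was at 1.61 CPM in s4, 0.908 CPM in s17, 6.98 CPM in s13 and 14.8 CPM in s9. It was at 73.6 and 73.9 CPM in the round spermatid sub-clusters s8 and s7. Early spermatocytes also held s1, a shallow sub-cluster with a median of 13.2% mitochondrial UMIs and 217, 133 and 1 cells in dEXO, EXO and PBS. It carried 10.3%, 10.7% and 0.536% of the members' UMIs of the stage, against 86.2%, 84.5% and 97.1% for s6.

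**Figure D3:**
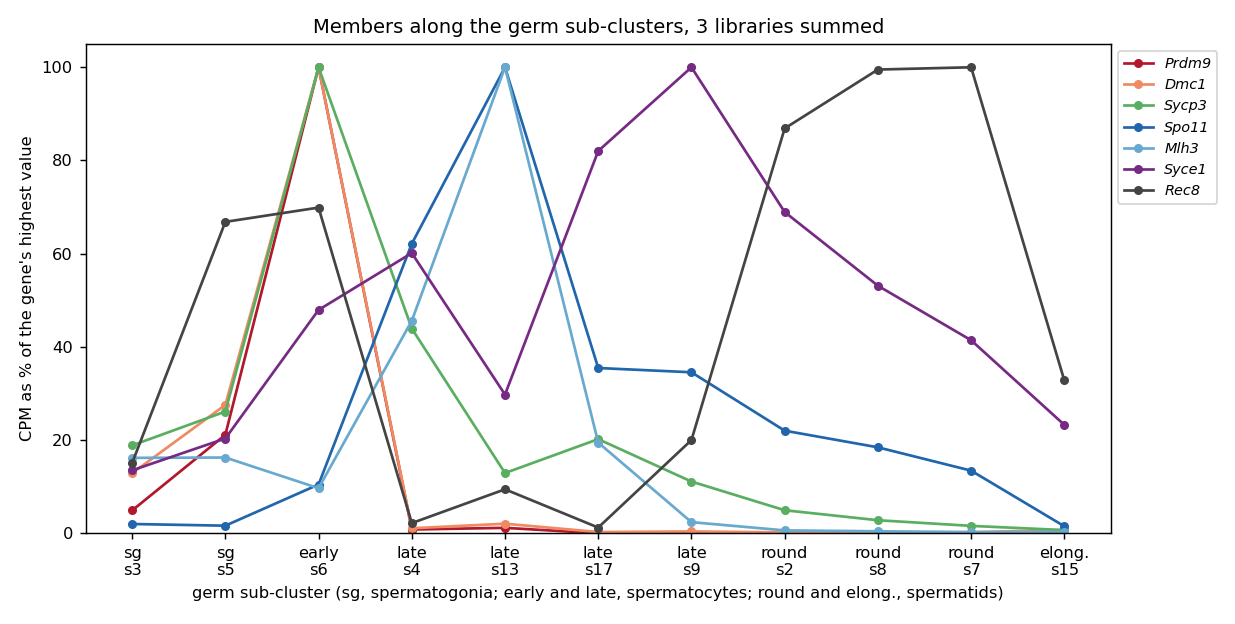
Level of 7 members in 11 of the 14 germ sub-clusters, as a percentage of the gene's highest value among those shown (the shallow s0, s1 and s12 are left out), with the 3 libraries summed. Prdm9, Dmc1 and Sycp3 are highest in s6, Spo11 and Mlh3 in s13, Syce1 in s9, and Rec8 has a low level in late spermatocytes between 2 higher ones. The order of sub-clusters within a stage was set by hand for display.

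Between groups, no member was past 2-fold in early spermatocytes. Of 28 tested genes 0 were past 2-fold in dEXO against PBS (over all genes 6.49%), 0 in EXO against PBS (4.39%) and 0 in dEXO against EXO (4.66%). With 28 genes, a count of 0 is near those shares and is not read as a result about the members. The summed level was 10790.5 CPM in dEXO and 10732 in PBS (log2 ratio 0.01, 95% counting interval −0.04 to 0.05), and 11733 CPM in EXO (0.13 against PBS, 0.08 to 0.17). The EXO ratio turned to −0.09 when each cell counted equally and to −0.08 after thinning, and the dEXO ratio to −0.11 and −0.08. In these 2 settings 5 and 2 members were past 2-fold in dEXO and 5 and 1 in EXO. With cells counted equally this took the ratio alone, with no interval. dEXO stood 0.12 lower than EXO on the log2 scale (log2 ratio −0.12, interval −0.15 to −0.09). The median ratio over the members was 0.03, 0.11 and −0.02 for dEXO against PBS, EXO against PBS and dEXO against EXO, beside 0.09, 0.03 and 0.06 over all genes tested. The tightest intervals belong to the most abundant genes, such as Smc1b with a log2 ratio of −0.07 (−0.17 to 0.03) for dEXO against PBS.

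Within that bound some members differed beyond counting error, in both directions. For dEXO against PBS the interval lay above 0 for 2 of 28 genes and below 0 for 2. It lay above for 7 and below for 1 in EXO against PBS, and above for 2 and below for 8 in dEXO against EXO. The same counts over all genes were not made. Lower in dEXO than in PBS were Tex12 and Trip13, and lower in EXO than in PBS was Trip13. Brca2 was higher in dEXO than in PBS by 0.37 on the log2 scale (0.18 to 0.55) and in EXO than in PBS by 0.48 (0.29 to 0.67). Sycp2 was likewise higher in dEXO by 0.40 (0.21 to 0.60) and in EXO by 0.41 (0.21 to 0.62). Both comparisons use the same 27 PBS cells. The libraries also differ in sub-clusters here: s1, with 217, 133 and 1 cells in dEXO, EXO and PBS, had 954 CPM of Sycp2 and 1004 of Brca2 in dEXO and 1244 and 1031 in EXO. Within s6, Sycp2 had 667, 632 and 550 CPM and Brca2 742, 831 and 612 CPM in dEXO, EXO and PBS. Against EXO, dEXO had less of Tex12 (log2 ratio −0.57, −0.69 to −0.45), Hormad1 (−0.43, −0.56 to −0.29), Syce3 (−0.39, −0.54 to −0.24) and Stag3 (−0.32, −0.45 to −0.18). For Spo11, with 77, 44 and 8 UMIs in dEXO, EXO and PBS, the interval of dEXO against PBS ran from −0.07 to 2.24, so differences of that width were not detectable at this depth. Markers of other cells moved as well: the summed Leydig markers were at 526 CPM in dEXO, 592 in EXO and 320 in PBS early spermatocytes, and the summed Sertoli markers at 441, 358 and 154 CPM. Their part in these ratios was not tested.

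**Figure D4:**
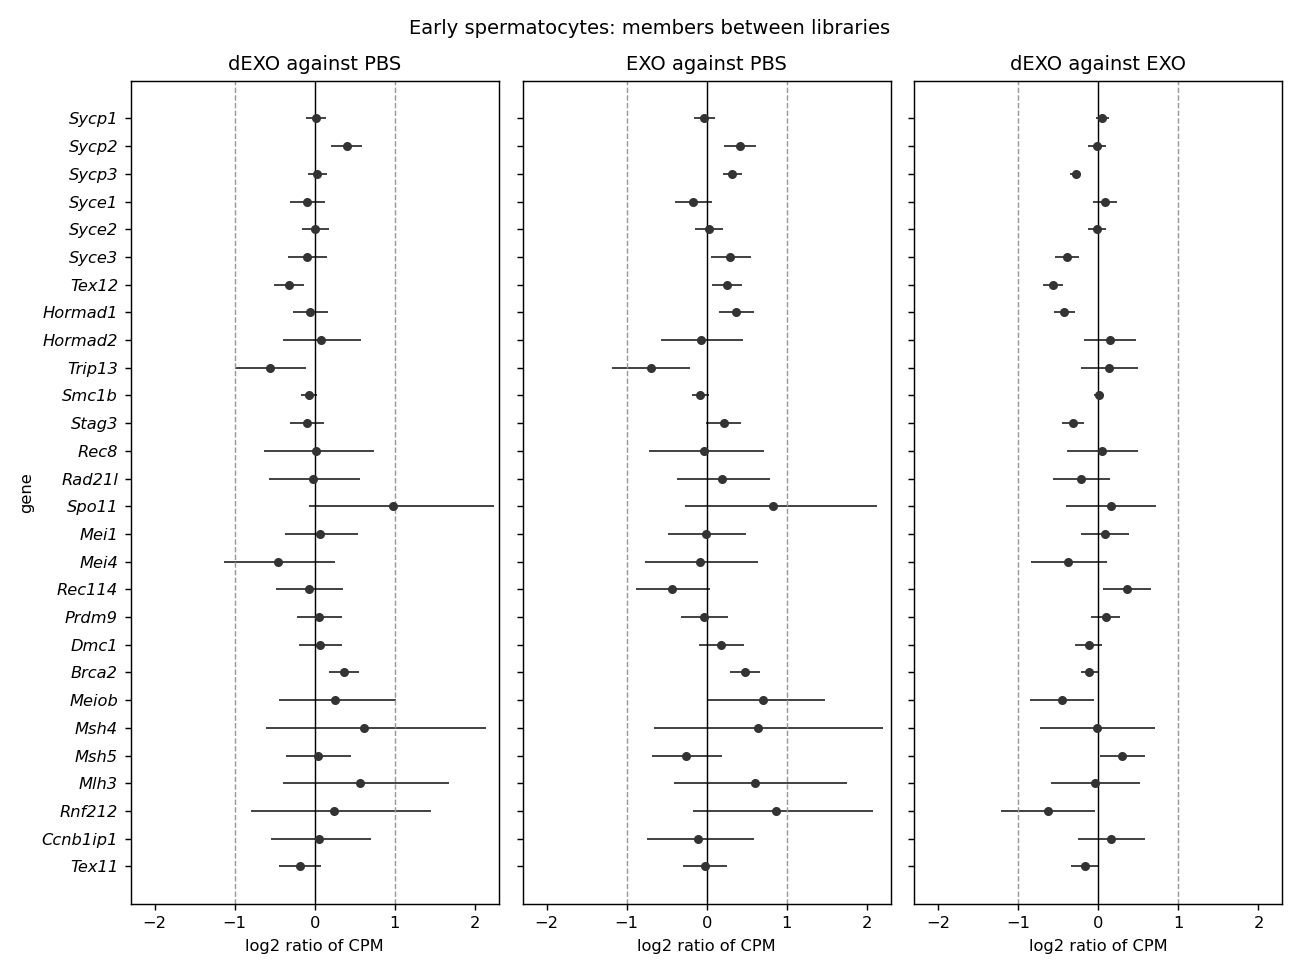
Log2 ratio of CPM for each tested member in early spermatocytes, dEXO against PBS (left), EXO against PBS (middle) and dEXO against EXO (right); bars are 95% counting intervals and dashed lines mark 2-fold. The points lie within the dashed lines in the 3 panels, with wide intervals for Spo11, Msh4, Mlh3 and Rnf212.

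Spermatogonia gave the same count. Of 27 tested genes 0 were past 2-fold in dEXO against PBS (over all genes 6.51%), 0 in EXO against PBS (3.39%) and 0 in dEXO against EXO (4.38%). A count of 0 among 27 genes is likewise near those shares. The nearest was Msh4, with 3.35 CPM in dEXO from 18 UMIs and 6.83 CPM in PBS from 18 UMIs (log2 ratio −1.03, interval −2.05 to 0.00, just including 0). The log2 ratio of the summed level was 0.05 for dEXO against PBS (0.01 to 0.08) and 0.25 for EXO against PBS (0.21 to 0.29). Hormad1 was at 90.1 CPM in dEXO, 158 in EXO and 102 in PBS. The 2 spermatogonial sub-clusters differ in level, s3 at 3219 CPM and s5 at 5062 CPM, and s5 held 41.4% of dEXO, 56.1% of EXO and 40.5% of PBS spermatogonia. Within s5 the log2 ratio of EXO against PBS was 0.16 (0.10 to 0.21) and within s3 0.09 (0.03 to 0.15), both under the 0.25 of the whole stage.

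In pachytene and later spermatocytes the sums differed more, but the PBS side was thin. The summed level was lower in dEXO than in PBS by a log2 ratio of −0.25 (−0.30 to −0.20) and lower in EXO than in PBS by −0.49 (−0.54 to −0.43). Past 2-fold were 2 of 23 genes in dEXO against PBS (over all genes 6.84%), 5 of 21 in EXO against PBS (17.2%) and 1 of 23 in dEXO against EXO (7.43%). Tex12 had 50.1, 29.6 and 102 CPM in dEXO, EXO and PBS, and Ccnb1ip1 10.7, 6.83 and 25.8 CPM. Both were past 2-fold lower in dEXO and in EXO than in PBS. Sycp1, with 235, 118 and 398 CPM, and Smc1b, with 318, 199 and 420 CPM, were past 2-fold lower in EXO than in PBS. dEXO was higher than EXO for Sycp1 (log2 ratio 0.99, 0.85 to 1.14) and Smc1b (0.68, 0.56 to 0.79), short of 2-fold. Rec8 was higher in EXO than in PBS on 35 and 1 UMIs (ratio 8.22, log2 interval 0.47 to 8.38) and lower in dEXO than in EXO (log2 ratio −1.57, −2.38 to −0.78). That second ratio turned to 0.35 when no doublets were removed and to 0.20 when they were removed at the loading rate in every library. In s9, which held 16.2% of dEXO and 44.5% of EXO cells of the stage, Rec8 was at 9.85 and 18.3 CPM. The part of s9 in these Rec8 ratios was not tested.

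The directions against PBS rest on few PBS cells. PBS had 5 cells in sub-cluster s4, 15.6% of its 32, and they gave 78.0% of the members' UMIs of the stage, against 32.0% in dEXO and 20.5% in EXO. Most PBS cells, 22 of 32, were in s9, where the members had 1853 CPM in dEXO, 1843 in EXO and 1941 in PBS. Within s9 the log2 ratio was −0.07 for dEXO against PBS (−0.34 to 0.22) and −0.08 for EXO against PBS (−0.35 to 0.21). Without the 5 deepest cells of each library the ratios of the whole stage turned, to 0.34 for dEXO against PBS and 0.17 for EXO against PBS. They were also above 0 when each cell counted equally, at 0.74 and 0.53, and after thinning, at 0.53 and 0.23. No direction against PBS is given for this stage. Between dEXO and EXO, with 396 and 227 cells, the log2 ratio was 0.24 (0.20 to 0.27) and kept its sign in the alternatives, between 0.09 and 0.30. Within sub-clusters the ratio was smaller or opposite: it was 0.09 in s4 (0.03 to 0.16), 0.01 in s9 (−0.07 to 0.09) and −0.28 in s13 (−0.39 to −0.17), and s17 had 2552 CPM in dEXO and 2565 in EXO. The libraries differed in their sub-clusters: s17 held 50.6% of the members' UMIs in dEXO and 38.5% in EXO, and s9 held 8.41% and 32.3%.

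**Figure D5:**
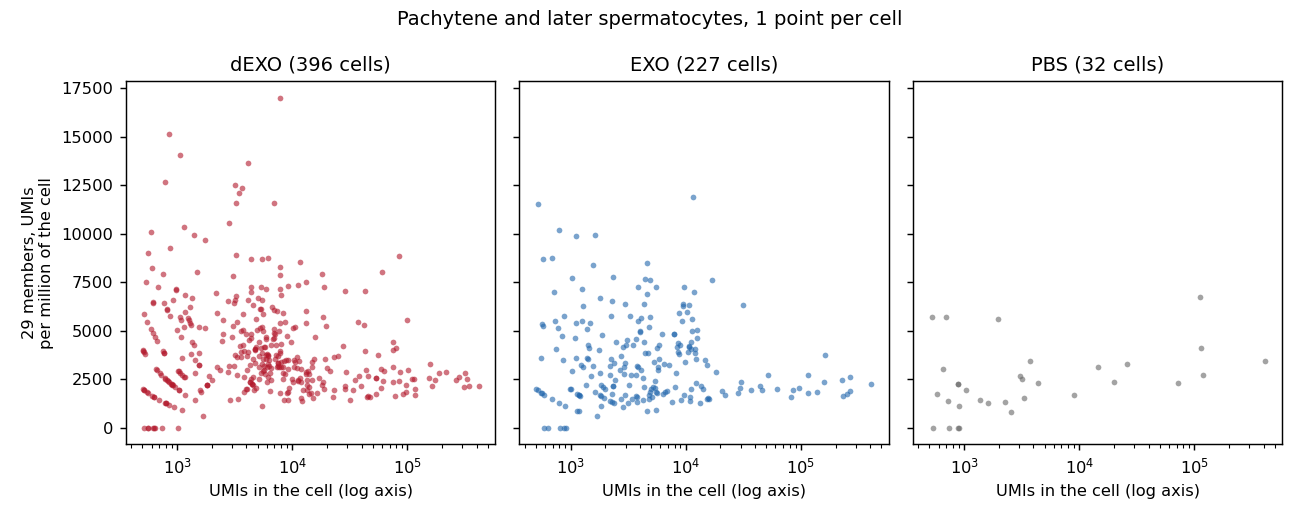
Summed member level of each cell (CPM of that cell) against the cell's total UMIs (log axis) for pachytene and later spermatocytes, 1 point per cell, in dEXO (left), EXO (middle) and PBS (right). PBS has 32 cells, of which 5 exceed 50000 UMIs, against 40 of 396 in dEXO and 16 of 227 in EXO.

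Round spermatids were level in sum, at 1915 CPM in dEXO, 1813 in EXO and 1849 in PBS. dEXO against PBS gave a log2 ratio of 0.05 (0.02 to 0.08) and EXO against PBS one of −0.03 (−0.06 to 0.00). Set against EXO, dEXO stood at 0.08 (0.06 to 0.10). Past 2-fold were 1 of 25 genes in dEXO against PBS (over all genes 4.69%), 2 of 22 in EXO against PBS (4.19%) and 2 of 25 in dEXO against EXO (3.78%). All 4 genes had few molecules here. Dmc1 had 30, 10 and 0 UMIs in dEXO, EXO and PBS, and with PBS set to a floor of 3 counts dEXO was 2.38-fold higher than PBS. Mlh3 was higher in dEXO than in EXO, with 46 and 13 UMIs. Hormad2 was higher in EXO than in PBS, with 69 and 10 UMIs. Meiob was lower in EXO than in PBS, with 24 and 17 UMIs out of stage totals of 15893536 and 5314252. The levels of Dmc1 and Mlh3 in these cells lay under those in Leydig-like cells of the same library, so no difference is read from them.

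The abundant members of round spermatids stood closer. Syce1 had 537, 498 and 495 CPM in dEXO, EXO and PBS, and Rec8 76.5, 58.6 and 81.3 CPM. Smc1b had 333 CPM in dEXO, 249.8 in EXO and 333 in PBS. EXO was the lowest of the 3 libraries for Rec8 and Smc1b and the highest for Syce3, at 421, 528 and 444 CPM in dEXO, EXO and PBS.

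Other genes of the pathway were described in the same way. Of 33 further recombination and synapsis genes, 25 were highest in early spermatocytes (20.9% of all genes) and 8 in pachytene and later spermatocytes (19.6%). In early spermatocytes 0 of 32 tested were past 2-fold in dEXO against PBS (over all genes 6.49%), EXO against PBS (4.39%) and dEXO against EXO (4.66%). A count of 0 among 32 genes is near those shares. The medians were 0.09, 0.07 and −0.04 in these 3 comparisons. In spermatogonia 1 of 31 was in EXO against PBS (over all genes 3.39%), Cntd1, with 11.7 CPM in EXO and 4.93 in PBS. In pachytene and later spermatocytes 1 of 30 was higher and 1 lower in dEXO against PBS (over all genes 6.84% in either direction), and 1 of 26 higher and 5 lower in EXO against PBS (17.2%). Terb2, which tethers telomeres to the nuclear envelope, was lower in both, with 9.45, 7.84 and 25.8 CPM in dEXO, EXO and PBS. The PBS side of these is the same 32 cells. In round spermatids 5 of 33 were past 2-fold in dEXO against PBS, each of them higher (over all genes 3.55% were higher). Among them was Zcwpw1, a reader of the marks that Prdm9 makes, with 5.02 CPM in dEXO and 2.45 in PBS. The 5 were not set against their levels in Leydig-like cells, so no difference is read from them. In early spermatocytes Zcwpw1 stood at 725, 732 and 731 CPM in dEXO, EXO and PBS. Of 10 regulators of meiotic genes, 7 were highest in early spermatocytes (20.9% of all genes), with Stra8 at 1324, 1123 and 1333 CPM in dEXO, EXO and PBS. There 0 of 10 were past 2-fold in each comparison, too few genes to differ from the same shares of 6.49%, 4.39% and 4.66%. Stra8 and another of the 10, Mybl1, also served as stage markers.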

How the data were processed

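The deposited values were raw counts of unique molecular identifiers (UMIs) per gene and cell barcode, written by the authors with Cell Ranger 5.0.1 per the file headers, and GRCm38 is named in the submitters' processing notes. The 29 genes and the other lists were chosen with earlier results of these data known. Barcodes with fewer than 500 UMIs, fewer than 300 genes or over 20% mitochondrial UMIs were left out. Scrublet called 172 doublets in dEXO, 2 in EXO and 4 in PBS, which were removed; at 2 and 4 calls it had not worked in EXO and PBS, so removal at the loading rate was an alternative. That left 8947, 9860 and 5267 cells of dEXO, EXO and PBS.

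Cells were clustered with scanpy 1.11.5 (2000 variable genes without the 29, 30 components, 15 neighbours, Leiden resolution 1), and germ clusters were clustered again. Stages were named from at least 3 raised markers outside the 29, and other clusters stayed unnamed. Counts were summed per stage and library and divided by the stage total (CPM). Levels have exact Poisson 95% intervals and ratios exact conditional binomial ones, which cover counting error only. Each group was 1 library, so no test across samples was possible. A library entered a ratio with at least 20 cells of the stage, and a count of 0 was set to a floor of 3. Ratio code was tested on simulated counts. Named genes were the 29 members, and for other lists those past 2-fold. A few other genes, the cohesin subunits and Stra8, were chosen after their values were seen.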

Additional observations from a re-analysis of the deposited data

Results flagged for a closer look

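The log2 ratios of the summed level of the 29 genes had opposite signs in different stages. The difference between stages was not tested, since each group is 1 library, and several signs turn with the processing. For dEXO against PBS the log2 ratio was 0.0493 in spermatogonia and 0.0508 in round spermatids but −0.249 in pachytene and later spermatocytes. For EXO against PBS it was 0.2504 in spermatogonia and 0.129 in early spermatocytes but −0.486 in pachytene and later spermatocytes. Both pachytene values rest on 32 PBS cells and turned, to 0.34 for dEXO and 0.17 for EXO without the 5 deepest cells and to 0.74 and 0.53 with cells counted equally, so no direction is given. The EXO value in early spermatocytes turned to −0.089 with cells counted equally, and the dEXO value in round spermatids to −0.056 with median-gene scaling. For dEXO against EXO the log2 ratio was −0.201 in spermatogonia and −0.121 in early spermatocytes but 0.237 in pachytene and later spermatocytes and 0.0790 in round spermatids. The last turned to −0.018 with median-gene scaling, and the pachytene value was smaller or opposite within sub-clusters.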

How the results depend on the processing

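No paired analysis was possible because each group is 1 library. The mean summed level in early spermatocytes, 11085 CPM, was 9139 CPM when each cell counted equally, 8255 with the members kept for clustering, 10885 at germ resolution 2, 9357 after thinning to 1000 UMIs, 11517 in cells with at least 2000 UMIs and at most 10% mitochondrial UMIs, and 10472 without the 5 deepest cells of each stage and library. These last 2 settings were chosen after seeing the data. In pachytene and later spermatocytes, 3100 CPM, it was 3330 with cells counted equally, 2898 with doublets removed at the loading rate, 2927 with none removed, 3205 at resolution 2, 2464 at most 10% mitochondrial UMIs, 3503 thinned, and 2909 without the 5 deepest cells. The cause of these shifts was not tested.

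In early spermatocytes the log2 ratio of dEXO against PBS was −0.088 with median-gene scaling, −0.11 with cells counted equally, 0.28 with members kept, −0.079 thinned and 0.070 in the deeper cells. EXO against PBS was 0.074, −0.089, 0.31, −0.076 and 0.18 in these settings. dEXO against EXO was −0.16 with median-gene scaling, −0.019 with cells counted equally, −0.091 with doublets removed at the loading rate, −0.025 with members kept, −0.078 at resolution 2 and −0.0037 thinned. Members past 2-fold, 0 in the report, were 5 with cells counted equally, 2 with members kept and 2 thinned for dEXO against PBS, 5, 1 and 1 for EXO against PBS, and 2 with cells counted equally for dEXO against EXO. The counts with cells counted equally took the ratio alone, with no interval, a looser rule than the others.

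In pachytene and later spermatocytes dEXO against PBS was −0.34 with median-gene scaling, −0.42 with doublets removed at the loading rate and −0.46 with none removed, but 0.74 with cells counted equally, 0.53 thinned and 0.34 without the 5 deepest cells. EXO against PBS was −0.43 with median-gene scaling, −0.54 with no removal, −0.35 at resolution 2 and −0.43 at most 10% mitochondrial UMIs, but 0.53, 0.23 and 0.17 in the same 3 settings. dEXO against EXO was 0.091 with median-gene scaling, 0.095 with loading-rate removal, 0.086 with none, 0.11 at resolution 2, 0.17 at most 10% mitochondrial UMIs, 0.30 thinned and 0.17 without the 5 deepest cells. Members past 2-fold in dEXO against PBS, 2 in the report, were 18 with cells counted equally, 4 with loading-rate removal, 5 with none, 1 at resolution 2, 4 at most 10% mitochondrial UMIs, 0 thinned and 4 without the 5 deepest cells. In EXO against PBS, 5 in the report, they were 14, 3 with loading-rate removal, 3 at resolution 2, 0 thinned and 1 without the 5 deepest cells. In dEXO against EXO, 1 in the report, they were 3 with cells counted equally, 0 with loading-rate removal, 0 with none, 0 at resolution 2, 2 thinned, 2 in the deeper cells and 0 without the 5 deepest cells. In each comparison the count with cells counted equally took the ratio alone, with no interval, a looser rule than the others.

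Single genes turned in that stage as well. With cells counted equally and without the 5 deepest cells, dEXO against PBS was 1.98 and 1.13 for Tex12 and 1.96 and 0.51 for Ccnb1ip1. EXO against PBS was 0.78 and 0.89 for Sycp1, 1.98 and 0.64 for Tex12, and 1.56 and 0.13 for Ccnb1ip1. Without the 5 deepest cells it was 0.46 for Smc1b and −2.15 for Rec8. Rec8 in dEXO against EXO was 0.037 with cells counted equally, 0.20 with loading-rate removal and 0.35 with none. In round spermatids the sum for dEXO against PBS was −0.056 with median-gene scaling and −0.083 thinned, and for dEXO against EXO −0.018 with median-gene scaling. Hormad2 for EXO against PBS was −1.99 with cells counted equally. Early spermatocytes could not be compared with PBS at most 10% mitochondrial UMIs, nor pachytene and later spermatocytes with PBS in the deeper cells, since fewer than 20 PBS cells were left.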
